A study of Mus musculus with 13 samples.

Results

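The C1q macrophages with high Spp1 are 1262 barcodes of 10 mouse colon tumors, out of 93871 barcodes retained from the tumors and 118892 retained from all 13 libraries. A barcode was retained with at least 500 unique molecular identifiers (UMIs, which count captured RNA molecules), at least 200 genes and under 25% of its UMIs from mitochondrial genes. A retained tumor barcode was a member when C1qa, C1qb and C1qc together had at least 20 UMIs, Spp1 had at least 5, and Cd3e, Cd79a and Cxcr2 had none. The members were chosen by these UMI counts, so their levels of C1q and Spp1 are a description. Of 1366 retained tumor barcodes that met the C1q and Spp1 minimums, 104 were left out for a UMI of Cd3e (14), Cd79a (31) or Cxcr2 (64), with some having more than 1 of these.

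The tumors and 3 samples of adjacent colon mucosa came from 3 C57BL/6J mice that carried both ApcMin/+, a truncating allele of the Apc tumor suppressor, and p16cis/cis, an engineered epimutation of p16. All 3 ate a diet with added choline, betaine, folic acid and vitamin B12, and no library of a mouse on the control diet was analysed here. Tumors 1 to 4 came from mouse AP1086 (20 weeks of age), tumors 5 to 8 from AP1044 (24 weeks) and tumors 9 and 10 from AP1067 (23 weeks). Age and animal cannot be told apart, and tumors of the same mouse are not independent animals, so p-values over tumors take the tumor as the unit. Between sets of cells they rest on how the difference within a tumor varies over tumors. Between mice they rest on the spread of tumors within a mouse. Tumors were dissociated with a tumor kit and mucosa with EDTA and TrypLE, so tissue and dissociation cannot be told apart either.

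The tumor libraries held 57221300 to 93157039 UMIs over 7789 to 11862 deposited barcodes. Pairs of libraries shared 14 to 61 barcode sequences, and no member barcode occurred in more than 1 tumor. The labels call 7 libraries female, but all 13 held 2274 to 3860 UMIs of the Y-linked gene Ddx3y and 1 to 10 UMIs of Xist, so the sex labels went against the data and sex was not used.

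C1q is the recognition part of the classical complement pathway, and tissue macrophages make most of it. Spp1 encodes osteopontin, a secreted phosphoprotein that binds integrins and CD44, and in the gut C1q marks macrophages that have matured from blood monocytes. Macrophages that take up lipid or dead cells often carry Trem2, a lipid-sensing receptor, with Apoe, a lipid carrier, and Mmp12, the macrophage elastase.

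The sequences just upstream of the genes that define these cells are shown because 2 of the rule's genes and Mmp12 share a short motif there, and only windows with a motif are printed. The window of C1qb and the 3 of Apoe held none of the motifs searched. Each is the 250 bases before a transcription start in RefSeq (GRCm38.p6, the assembly behind mm10, the build named in the submitters' processing notes), written 5′ to 3′ on the strand of the gene. Capitals mark GAGGAAGT or its reverse complement ACTTCCTC, the motif bound by PU.1, a macrophage transcription factor, or TGANTCA, both searched on both strands. TGANTCA allows any middle base, while the AP-1 motif has C or G there. The match of Mmp12 has G and that of Trem2 has A, so the latter is not the AP-1 motif.
Spp1, chr5:104434861-104435110, plus strand: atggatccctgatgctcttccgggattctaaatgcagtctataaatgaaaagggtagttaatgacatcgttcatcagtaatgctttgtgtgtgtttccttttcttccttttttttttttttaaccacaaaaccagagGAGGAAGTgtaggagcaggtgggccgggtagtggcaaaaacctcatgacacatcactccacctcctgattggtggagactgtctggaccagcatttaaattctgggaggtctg
C1qc, chr4:136892915-136893164, minus strand: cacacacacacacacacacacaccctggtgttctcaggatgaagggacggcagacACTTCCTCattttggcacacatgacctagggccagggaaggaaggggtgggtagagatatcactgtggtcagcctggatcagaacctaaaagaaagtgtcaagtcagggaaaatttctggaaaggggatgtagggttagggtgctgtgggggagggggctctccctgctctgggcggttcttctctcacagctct
Mmp12, chr9:7344147-7344396, plus strand: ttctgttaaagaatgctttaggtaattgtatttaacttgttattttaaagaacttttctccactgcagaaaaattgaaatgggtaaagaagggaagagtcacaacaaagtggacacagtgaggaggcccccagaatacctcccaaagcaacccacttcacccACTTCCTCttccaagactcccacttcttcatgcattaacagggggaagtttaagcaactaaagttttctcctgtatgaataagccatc
Mmp12, chr9:7347124-7347373, plus strand: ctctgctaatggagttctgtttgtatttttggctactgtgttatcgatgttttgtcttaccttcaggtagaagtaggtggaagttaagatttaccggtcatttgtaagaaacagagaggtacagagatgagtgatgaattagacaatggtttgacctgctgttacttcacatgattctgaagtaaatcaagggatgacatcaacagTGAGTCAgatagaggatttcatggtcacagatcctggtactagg
Trem2, chr17:48346151-48346400, plus strand: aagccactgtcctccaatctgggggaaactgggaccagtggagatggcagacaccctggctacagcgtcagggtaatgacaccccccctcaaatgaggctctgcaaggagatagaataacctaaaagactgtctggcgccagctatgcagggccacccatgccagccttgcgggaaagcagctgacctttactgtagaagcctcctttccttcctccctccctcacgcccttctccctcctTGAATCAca
GAGGAAGT was found upstream of Spp1, C1qc and the first start of Mmp12, and 2.44% of all 32851 such windows held it. TGANTCA was found upstream of Trem2 and the second start of Mmp12, and 6.75% of all windows held it. A second listed start of Spp1 held neither. CACGTG, an E-box read by regulators of lysosomal genes, was also searched and is in 6.02% of all windows but in none of those printed. Of the 12 genes with the largest rise against the Spp1-low cells 7 had a window, and GAGGAAGT and TGANTCA were each found in 1 of them, Mmp12, and CACGTG in 1, Pdpn. Of the 12 with the largest fall 9 had a window, and none of the 3 motifs was found there. These matches are descriptions of letters and not of binding.

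The members made up 19.4% ± 5.10 (SD, n = 10 tumors) of the barcodes that passed the C1q gate, and 1.30% ± 0.457 (SD, n = 10) of the retained barcodes. In mouse AP1086 they were 203 of 1046 C1q-gated barcodes in tumor 1 (19.4%), 200 of 824 in tumor 2 (24.3%), 75 of 388 in tumor 3 (19.3%) and 179 of 675 in tumor 4 (26.5%). In AP1044 they were 122 of 662 in tumor 5 (18.4%), 158 of 579 in tumor 6 (27.3%), 76 of 597 in tumor 7 (12.7%) and 77 of 556 in tumor 8 (13.8%). In AP1067 they were 123 of 772 in tumor 9 (15.9%) and 49 of 299 in tumor 10 (16.4%). The tumors of AP1044 spanned the lowest and the highest share, so the spread within that mouse covered both other mice. An exact permutation test of the F statistic over 3150 arrangements of the tumors gave p = 0.311 between mice for the share of the C1q gate and p = 0.16 for the share of retained barcodes, and without tumor 3 the latter gave an exact p = 0.0444. For the share of the C1q gate the F statistic was 1.31 and went to 5.66 without tumor 6 (exact p = 0.0548). The mucosa held 10, 19 and 36 C1q-gated barcodes and 0 with 5 or more Spp1 UMIs, with exact 95% upper limits of 30.8%, 17.6% and 9.74%. Of the retained mucosa barcodes none was such a cell, with exact 95% upper limits of 0.0711%, 0.0345% and 0.0403%, against 0.660% to 1.88% in the tumors. These limits cover counting error only. Tissue was not tested, and the upper limits for the C1q gate lay above the lowest tumor share in the first 2 mucosa libraries and below it in the third.

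**Figure D1:**
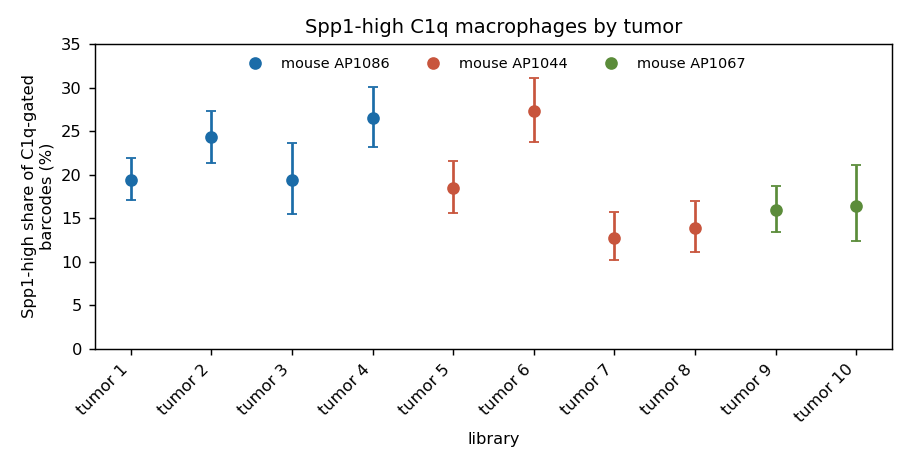
Share of C1q-gated barcodes with at least 5 Spp1 UMIs (y axis, percent) in each of the 10 tumor libraries (x axis), colored by mouse, with exact 95% binomial intervals that cover counting error only. Shares ran from 12.7% in tumor 7 to 27.3% in tumor 6, both of mouse AP1044.

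Spp1 was spread unevenly over the members. The median member had 23 Spp1 UMIs (quartiles 9 and 72, highest 4698), and the 126 members with the most Spp1 held 65.1% of the members' 126856 Spp1 UMIs. Members were 1.34% of the retained tumor barcodes and held 49.4% of their Spp1 UMIs. At the threshold there was no gap: 144 and 99 C1q-gated barcodes had 3 and 4 Spp1 UMIs, and 82 and 73 members had 5 and 6.

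The markers that the rule did not use were present. In the members Trem2 ranged from 469 to 712 CPM (UMIs of the gene per 1000000 UMIs, from UMIs summed per gate and tumor, the unit of every level here) with a median of 610. Mmp12 ranged from 476 to 2628 CPM (median 1005). A Trem2 UMI was found in 93.2% of the members and a Mmp12 UMI in 57.3%. Pooled T cells of the same tumors (at least 3 Cd3e UMIs), which should lack these genes, held 8.26 CPM of Trem2 and 10.2 CPM of Mmp12. For Spp1 itself, 2.16% of these T cells (median 5604.5 UMIs) reached 5 UMIs, against a median depth of 13923.5 UMIs in the members.

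The members were compared with 3 other sets of the same tumors. Spp1-low C1q macrophages (4678 barcodes) met the C1q minimum with 0 or 1 Spp1 UMI, Spp1-high C1q-low myeloid cells (939) had at least 5 Spp1 UMIs, fewer than 5 C1q UMIs and a Csf1r UMI, and Ly6c monocytes (1924) had at least 3 Ly6c2 UMIs with low C1q and Spp1. Median depth was 8758.5 UMIs in the Spp1-low and 7069 in the C1q-low cells, below that of the members. The doublet score marked 13.9% of members and 6.76% of Spp1-low cells. Both comparisons tested, with the Spp1-low and with the C1q-low cells, were therefore also computed without marked barcodes and with barcodes of 4000 to 12000 UMIs alone.

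**Figure D2:**
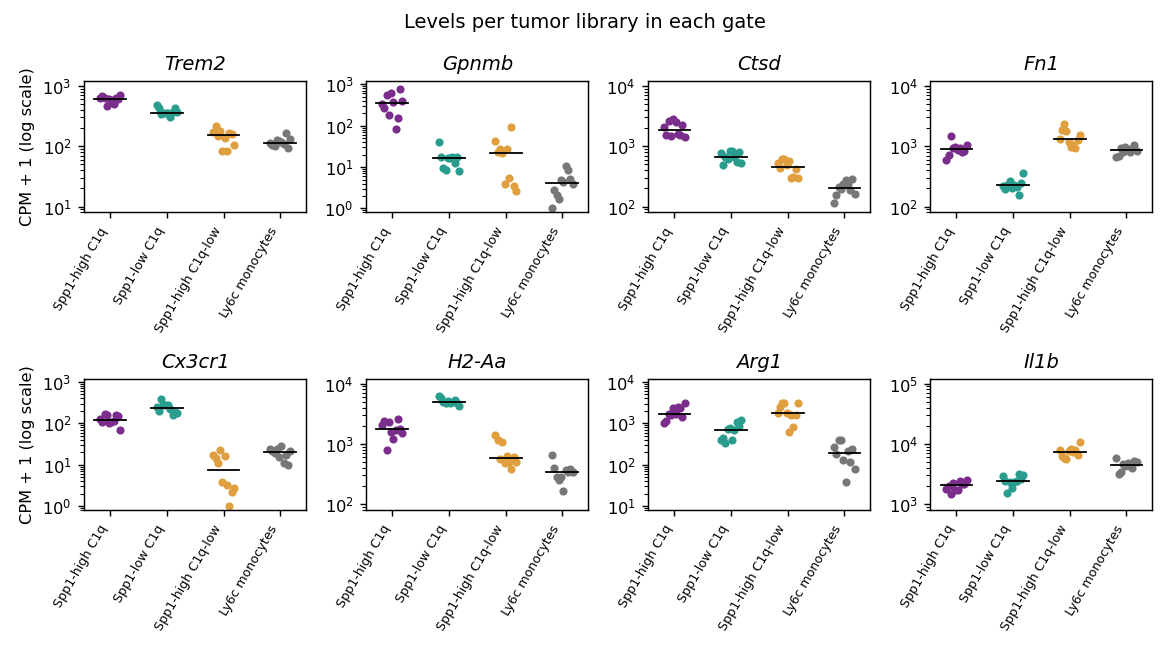
Level of 8 genes (y axis, CPM + 1 on a log scale) in the 10 tumor libraries for the 4 cell sets (x axis), with 1 point per library and a line at the median. Gpnmb and Ctsd were above the Spp1-low cells in every tumor, H2-Aa was below them, and Il1b was highest in the Spp1-high C1q-low cells.

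Against the Spp1-low C1q macrophages, the members carried more of the lipid and lysosome genes and less of the resident macrophage, antigen presentation and interferon genes. With the tumor as a block, 3866 of 9373 genes (41.2%) passed an adjusted p of 0.05 in edgeR. Of all tested genes 1994 (21.3%) rose and 1872 (20.0%) fell, and for 80 (0.854%) each member library lay above and for 148 (1.58%) below every Spp1-low library. With 4000 to 12000 UMIs per barcode 1471 of 6611 tested genes were called (22.3%), 11.8% higher and 10.4% lower. Without mouse AP1044 2570 were called, and without the tumor block 2478. The 9 genes of the gates were not tested.

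Of the lipid-associated macrophage genes, 15 of 20 tested rose and 2 fell, with a median log2 fold change of 0.63 against -0.01 over all genes. Gpnmb, a lysosome-associated glycoprotein, ranged from 84.2 to 778 CPM in the members (median 348) and from 6.87 to 40.01 CPM in the Spp1-low cells (median 15.7), and the groups did not overlap. Its log2 fold change was 4.49 ± 0.28 (SE, n = 10 tumors, adjusted p = 2.5e-09). These are levels of summed UMIs, and a Gpnmb UMI was found in 30.3% of the members and 6.41% of the Spp1-low cells. In barcodes with at least 5000 UMIs, thinned at random to 5000, the shares were 22.9% and 3.98%. Gpnmb was at 5.59 CPM in pooled T cells and 16.7 CPM in pooled B cells (at least 3 Cd79a UMIs) and had a median of 3.18 CPM in the Ly6c monocytes, so the level of the Spp1-low cells lay above some of these cells and not above the B cells. The part of free RNA in it was not tested. Of the B cell barcodes 39.9% had an Epcam UMI, against 11.1% of the T cells, so they may not hold RNA of B cells alone. Trem2 rose by 0.76 ± 0.06 on the log2 scale and was higher in 10 of 10 tumors, although its lowest member level lay below the highest of 482 CPM in the Spp1-low cells. Fabp5, a fatty acid carrier, ranged from 894 to 4126 CPM against 520 to 1607 CPM, and Lpl, lipoprotein lipase, from 5.52 to 112 CPM against 3.98 to 32.8 CPM. Both groups of values overlapped, and both genes were higher in every tumor. Apoe went the other way, with medians of 26061 CPM in the members and 33914 CPM in the Spp1-low cells, a log2 fold change of -0.25 ± 0.07 and a lower level in 9 of 10 tumors. The fall of Apoe was not called without the tumor block (adjusted p = 0.135), without mouse AP1044 (0.1) or without mouse AP1086 (0.137). Nr1h3, the sterol sensor LXR alpha, also fell, but was not called within 4000 to 12000 UMIs (adjusted p = 0.198) or without mouse AP1086 (0.096).

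The lysosomal list had 12 of 16 genes higher and 2 lower, with a median log2 fold change of 0.31. Within 4000 to 12000 UMIs 5 of 16 were higher and 2 lower. Ctsd, an aspartyl protease of the lysosome, ranged from 1419 to 2768 CPM in the members and from 496 to 845 CPM in the Spp1-low cells, without overlap (log2 fold change 1.60 ± 0.06, adjusted p = 1.5e-11). Atp6v0d2, a subunit of the proton pump that acidifies lysosomes, had the largest rise among the genes named by the rule, at 3.94 to 187 CPM against 0.853 to 3.38 CPM. Lgmn, a lysosomal endopeptidase, fell by 0.31 on the log2 scale.

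Among matrix genes 7 of 20 rose and 4 fell, and within 4000 to 12000 UMIs 9 of 18 were higher and 1 lower. Mmp12 rose by 1.87 ± 0.21 and Fn1, fibronectin, by 2.07 ± 0.10 on the log2 scale. Fn1 ranged from 582 to 1454 CPM in the members and from 155 to 363 CPM in the Spp1-low cells, so the groups did not overlap. Of the 7 tested receptors that bind osteopontin, Cd44, Itgb1 and Itga5 rose and Itgb5, Itga4 and Itga9 fell, but Itgb5 (log2 fold change -0.15, adjusted p = 0.0358) lost the call under most alternatives, with adjusted p up to 0.221. Without the tumor block the rise of Cd44 was not called either (adjusted p = 0.109). Mfge8, a bridge between dying cells and phagocytes, ranged from 106 to 1215 CPM against 23.7 to 80.0 CPM, and 33.3% of the members had a UMI of it. The efferocytosis list had 4 of 11 genes higher and 3 lower (1 to 4 lower over the alternatives). The lower ones were Elmo1, Scarb1 and the phagocytic receptor Axl, and the receptor Mertk was not called.

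Of the resident gut macrophage genes 14 of 18 fell and 1 rose, with a median log2 fold change of -0.79. The list has 25 genes, and Cd163, Vsig4, Timd4 and Lyve1 were among those not tested. The fractalkine receptor Cx3cr1 ranged from 68.4 to 163 CPM in the members and from 159 to 384 CPM in the Spp1-low cells and was lower in 10 of 10 tumors. The chemokine Ccl8 had the largest fall by the naming rule, at 1.74 to 72.9 CPM against 171 to 1208 CPM. The gene that rose was F13a1, the A chain of coagulation factor XIII, which was not called by DESeq2 (adjusted p = 0.0807), without the tumor block (0.172), without mouse AP1044 (0.164) or AP1086 (0.0997), without any of tumors 1, 2, 4, 7, 8 and 10 (0.0501 to 0.104) or against cells with 0 Spp1 UMIs alone (0.0528). Vcam1, an adhesion molecule, fell by 3.00 on the log2 scale, and the paired membrane protein genes Tmem176a and Tmem176b had log2 fold changes of -2.64 and -2.60.

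Of the MHC class II presentation genes 11 of 12 were lower and none higher, with a median log2 fold change of -1.04. Within 4000 to 12000 UMIs 8 of 11 were lower and the costimulatory gene Cd80 was higher (log2 fold change 0.74, adjusted p = 7.01e-05). The fall of Cd86, another costimulatory gene, was not called without the tumor block (adjusted p = 0.0536), without mouse AP1044 (0.24) or without mouse AP1086 (0.0779). Within 4000 to 12000 UMIs the direction of Cd86 turned, with a log2 fold change of 0.19 that was not called (adjusted p = 0.0704). H2-Aa, a class II chain, ranged from 805 to 2597 CPM in the members and from 4246 to 6215 CPM in the Spp1-low cells, and Cd74, the invariant chain, had medians of 5970 and 15184 CPM. Neither gene overlapped between the groups. Ciita, the regulator of class II transcription, fell by 1.64 ± 0.15 on the log2 scale. Of the interferon genes 14 of 17 fell and none rose (median -0.95), and the interferon-induced chemokines Cxcl9 and Cxcl10 fell by 1.98 and 1.13.

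Of the hypoxia and glycolysis genes 21 of 26 rose and 1 fell (median 0.60). Ldha, lactate dehydrogenase, ranged from 745 to 1035 CPM against 405 to 694 CPM without overlap, and Egln3, an oxygen-sensing hydroxylase, rose by 1.21 ± 0.11 on the log2 scale. Vegfa had a log2 fold change of 0.19 ± 0.08 (adjusted p = 0.0567), which was 0.68 and called within 4000 to 12000 UMIs (adjusted p = 1.46e-05), and it was also called without the filter on low counts (0.0417), without tumor 8, without tumor 9 and without mouse AP1067 (adjusted p = 0.0304, 0.0204 and 0.0299). Of the inflammatory genes 7 of 15 were higher and 3 lower. Within 4000 to 12000 UMIs 11 of 14 were higher and none lower, and without the tumor block 6 of 15 were higher and none lower. Arg1, the arginine-degrading enzyme, rose by 1.57 ± 0.13, from a median of 704 CPM in the Spp1-low cells to 1714 CPM in the members, while Il1b fell by 0.19 ± 0.06, a call lost without the tumor block (adjusted p = 0.267), without marked barcodes (0.184), without tumor 1 (0.0511) and without mouse AP1067 (0.0554). Within 4000 to 12000 UMIs the direction of Il1b turned, with a log2 fold change of 0.43 (adjusted p = 0.000861).

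Chemokines had 7 of 16 genes higher and 5 lower, with Ccl24, Ccl6 and Cxcl14 among those that rose and Ccl5 among those that fell. A Ccl24 UMI was found in 10.7% of the members and 4.32% of the Spp1-low cells. Checkpoint and suppressive ligands had 3 of 12 higher and 7 lower (4 of 11 higher and 2 lower within 4000 to 12000 UMIs), complement genes other than C1q 1 of 9 higher and 5 lower, and iron genes 4 of 11 higher and 2 lower. Nt5e, the CD73 enzyme that makes adenosine, rose by 1.62 ± 0.11, and Slc40a1, the iron exporter ferroportin, fell by 1.71. Cell cycle genes had 16 of 18 higher and none lower (median 0.88), but within 4000 to 12000 UMIs 7 were tested, 1 was higher and the median was 0.18. Dissociation stress genes had 15 of 18 lower and none higher, and within 4000 to 12000 UMIs 9 of 18 lower and 1 higher.

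Markers of other cells were also found in the members, of which 82.9% had an Igkc UMI, 53.2% an S100a8 UMI and 10.6% an Epcam UMI. The 8 epithelial markers summed to 50.5 to 635 CPM in the members and 174 to 1161 CPM in the Spp1-low cells, and the 7 neutrophil markers to 79.0 to 850 CPM and 190 to 489 CPM. The 7 mast cell and erythrocyte markers, chiefly Hbb-bs, summed to 3.15 to 194 CPM in the members and 4.24 to 1861 CPM in the Spp1-low cells. Of the tested markers 4 of 8 epithelial, 1 of 5 neutrophil, 3 of 3 B and plasma cell and 3 of 3 erythrocyte genes were lower in the members and none was higher. The 1 fibroblast and endothelium gene tested, Pecam1, was also lower (log2 fold change -1.79). These counts moved with the alternatives. Of the epithelial markers 7 were lower without marked barcodes, none was lower without the tumor block, and without mouse AP1044 none was lower and 1 was higher. No erythrocyte gene was called without marked barcodes, without mouse AP1086 or within 4000 to 12000 UMIs, where Hbb-bs had adjusted p = 0.289, 0.122 and 0.332. The neutrophil gene S100a8 had a log2 fold change of 0.51 (adjusted p = 0.174) and was called higher when UMIs were summed per mouse (adjusted p = 0.000458), without tumor 1 (0.0299), without mouse AP1086 (0.0169) and without the filter on low counts (0.018). The T and NK cell markers summed to 1.58 to 27.6 CPM in the members and 2.32 to 25.2 CPM in the Spp1-low cells. In the same order the B and plasma cell markers, chiefly Igkc, summed to 73.1 to 520 CPM and 145 to 842 CPM. The dendritic cell markers summed to 0 to 14.0 CPM and 3.93 to 15.5 CPM, and the fibroblast and endothelium markers to 6.43 to 28.6 CPM and 27.2 to 90.3 CPM. Lum and Cpa3 had no UMI in the members. The part of these RNAs in the other results was not tested.

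**Figure D3:**
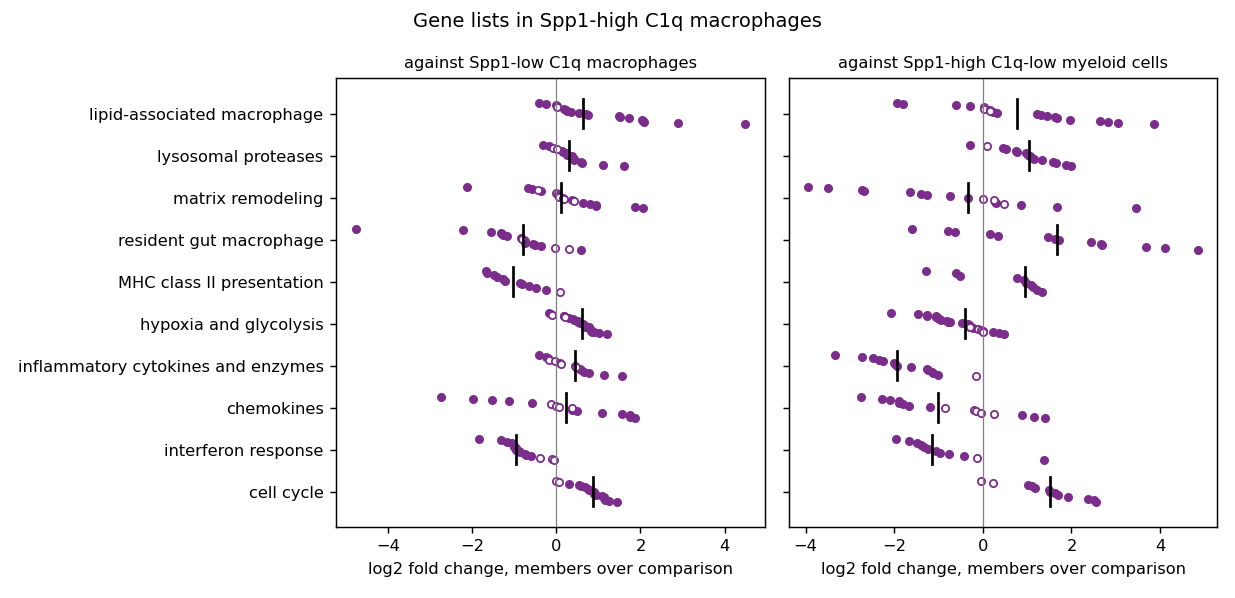
Log2 fold change of each tested gene of 10 lists in the members over Spp1-low C1q macrophages (left) and over Spp1-high C1q-low myeloid cells (right). Filled points were called at an adjusted p below 0.05, open points were not, and bars are list medians. MHC class II and resident genes lay mostly below 0 on the left and mostly above 0 on the right.

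Against the Spp1-high C1q-low myeloid cells the members carried more of the tested lysosomal, resident and class II genes and less of the inflammatory genes. Of 6676 genes tested 3506 (52.5%) were called, 1667 higher (25%) and 1839 lower (27.5%). For 311 (4.66%) each member library lay above and for 187 (2.8%) below every C1q-low library, and within 4000 to 12000 UMIs 1720 of 4335 tested genes were called (39.7%), 18.8% higher and 20.9% lower. Both comparisons contain the same member libraries, so they are not independent of each other.

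Lysosomal genes were higher for 14 of 16 and lower for 1 (median log2 fold change 1.04), and Ctsd had 297 to 624.8 CPM in the C1q-low cells. Lipid-associated genes had 12 of 20 higher and 4 lower (median 0.77), with 6 of 16 higher within 4000 to 12000 UMIs. The lower ones were Apoc1, Cd9, Plin2 and Olr1, and over the alternatives 2 to 4 of the list were lower. Apoe ranged from 22984 to 35311 CPM in the members and from 2519 to 4731 CPM in the C1q-low cells, without overlap. Trem2 was also above in every tumor, at 80.8 to 217 CPM in the C1q-low cells. Mmp12 was called higher in the members, but not without mouse AP1044 (adjusted p = 0.0954) or without mouse AP1086 (0.0627). Within 4000 to 12000 UMIs its log2 fold change was -0.0075 (adjusted p = 0.987). Of the 25 resident genes 14 were tested, of which 11 were higher and 3 lower (median 1.68). Cd163, Vsig4, Timd4 and Lyve1 were among those not tested. In the members Cd163 and Vsig4 had no UMI, and Timd4 and Lyve1 were found in 0.0792% and 0.158% of barcodes. Ms4a7, a tetraspan membrane protein of macrophages, ranged from 400 to 760 CPM against 6.23 to 58.0 CPM, and Cx3cr1 was at 0 to 21.3 CPM in the C1q-low cells. MHC class II genes were higher for 7 of 10 and lower for 3, the latter being the costimulatory genes Cd80, Cd86 and Cd40, and within 4000 to 12000 UMIs 1 of 9 was lower. The call of Cd40 was also lost without the tumor block (adjusted p = 0.0547), without tumor 1 (0.0584) and without mouse AP1086 (0.143).

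Inflammatory genes were lower for 14 of 15 and higher for none (median log2 fold change -1.93). Il1b ranged from 1463 to 2573 CPM in the members and from 5672 to 10690 CPM in the C1q-low cells, without overlap. Inhba, a chain of activin, had a log2 fold change of -2.47 ± 0.13 and Ptgs2, the inducible cyclooxygenase, of -2.73 ± 0.18. Arg1 had medians of 1714 and 1754 CPM, and its log2 fold change of -0.14 ± 0.22 was not called. Without mouse AP1044 it was -0.77 and called (adjusted p = 0.000133), and without mouse AP1086 it was 0.50 and not called. Hypoxia and glycolysis genes were lower for 18 of 26 and higher for 3 (12 to 20 lower and 0 to 3 higher over the alternatives). Cell cycle genes were higher for 11 of 13, and within 4000 to 12000 UMIs for 2 of 4.

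Interferon genes were lower for 10 of 12 and higher for 1, Bst2, and chemokines were lower for 8 of 16 and higher for 3. Checkpoint and suppressive ligands had 2 of 11 higher and 8 lower, complement genes other than C1q 3 of 8 higher and 5 lower, and iron genes 4 of 10 higher and 4 lower. Over the alternatives, which tested differing numbers of genes, 1 to 6 complement genes were lower. Efferocytosis genes had 4 of 10 higher and 1 lower, the higher ones being Mfge8, Elmo1 and the phagocytic receptors Mertk and Axl. Over the alternatives 2 to 4 of the list were higher. Of the osteopontin receptors Itgb1, Itgb5 and Itga9 were higher and Cd44 and Itga5 lower. Dissociation stress genes had 14 of 18 lower and none higher, and within 4000 to 12000 UMIs 2 of 18 lower and 3 higher.

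Matrix genes were higher for 5 of 17 and lower for 9 (2 to 7 higher and 8 to 12 lower over the alternatives). Fn1 was lower in 10 of 10 tumors, though not called within 4000 to 12000 UMIs (adjusted p = 0.08), and Vcan, the proteoglycan versican, had 2.72 to 20.2 CPM in the members and 62.1 to 224 CPM in the C1q-low cells. The largest falls by the naming rule included Slpi, a protease inhibitor, and Plac8, Chil3 and S100a8, genes of monocytes and neutrophils. S100a8 had a mean of 1892 CPM in the C1q-low cells and 221 CPM in the members, and 1047 CPM in pooled T cells. S100a9, another neutrophil gene among these falls, had 1243, 149 and 1511 CPM, so the C1q-low mean lay below the T cell level. The 7 neutrophil markers summed to 1039 to 7353 CPM in the C1q-low cells and all 5 tested were lower in the members, as were all 7 tested epithelial markers, which summed to 117 to 1991 CPM in the C1q-low cells. Without marked barcodes 3 of 4 tested epithelial markers were lower, and within 4000 to 12000 UMIs none passed the filter on low counts. The mast cell and erythrocyte markers summed to 14.8 to 6688 CPM in the C1q-low cells, and Hbb-bs was not called. It was called lower by DESeq2 (log2 fold change -2.02, adjusted p = 0.0211), without the tumor block (-4.09, 0.00301) and when summed per mouse (-3.49, 7.35e-06). With no filter on low counts it was also called lower (-1.94, 8.56e-45), as it was without marked barcodes (-1.32, 0.0401). The same held with under 10% mitochondrial UMIs (0.0476), without mouse AP1067 (0.0436) and when any of tumors 2, 4, 7 and 10 was left out. The part of these RNAs in the difference was not tested.

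Within the members, levels moved with the Spp1 count that chose them, which is given as a description. From the 321 members with 5 to 9 Spp1 UMIs to the 250 with at least 100, the mean level over tumors of Gpnmb went from 68.8 to 1068 CPM, that of Fabp5 from 1086 to 6033 CPM and that of Ctsd from 1156 to 3568 CPM. Trem2 went from 499.9 to 797 CPM. H2-Aa went the other way, from 2685 to 946 CPM, as did Cx3cr1, from 167 to 66.1 CPM, and Plac8, from 250 to 29.6 CPM. Median depth moved with these bins, from 12169 to 19102.5 UMIs.

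**Figure D4:**
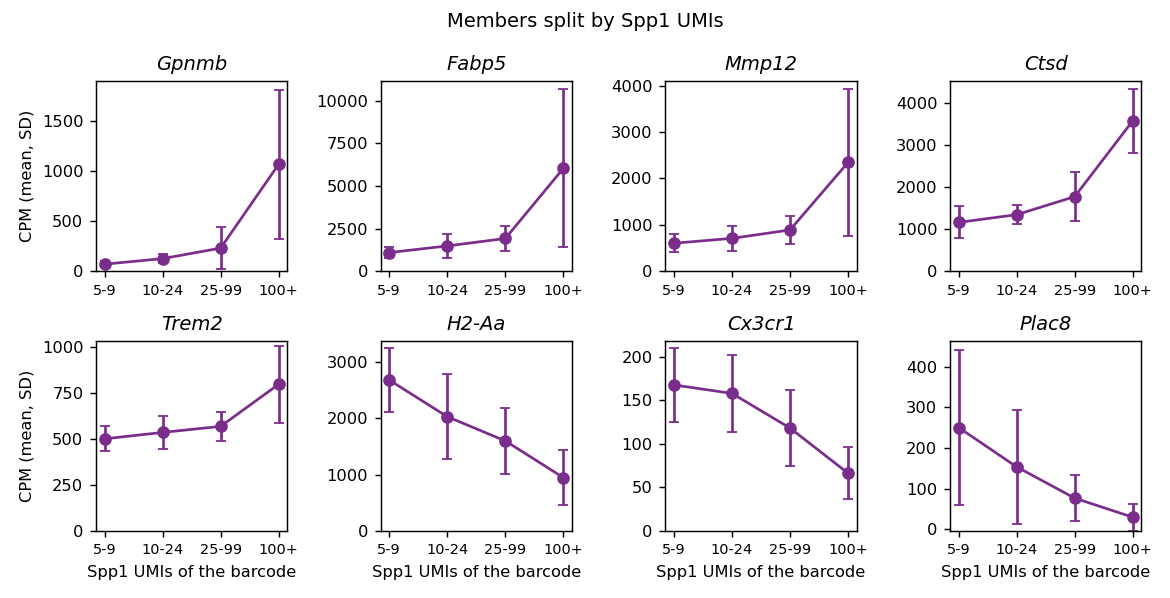
Mean level of 8 genes over the 10 tumors (y axis, CPM, bars are SD) in members split by their Spp1 UMIs (x axis). Gpnmb rose from 68.8 to 1068 CPM and H2-Aa fell from 2685 to 946 CPM between the first and last bin.

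Within the members, the mice were compared over their tumors. Of 9262 genes, 104 (1.12%) were called by edgeR over the 10 tumors and between 8 and 200 were called when a tumor was left out. Tnf ranged from 41.0 to 59.8 CPM in the tumors of AP1086, from 104 to 197 CPM in AP1044 and from 90.2 to 145 CPM in AP1067, and the tumors of AP1086 did not overlap the others. Mmp13, a collagenase, had 28.4 to 61.5 CPM in AP1086, 64.2 to 230 CPM in AP1044 and 199 to 221 CPM in AP1067. The neutrophil chemokine Cxcl1 had 79.8 to 168 CPM in AP1044, above both other mice. Those overlapped, at 21.8 to 54.4 CPM in AP1067 and 20.9 to 40.1 CPM in AP1086. Over all retained tumor barcodes AP1086 was also lowest for Tnf, at 39.7 CPM against 90.3 in AP1044 and 90.8 in AP1067. The same held for Mmp13, at 13.4 against 33.1 and 24.7 CPM. Cxcl1 was at 21.6 CPM in AP1086 against 56.2 and 53.6 CPM, so AP1067 was near AP1044 there, unlike in the members. Whether the members differed more than the other cells was not tested. Spink4, a goblet cell gene, ranged from 47.3 to 944 CPM in AP1086 and from 9.12 to 21.3 CPM in the others. Over all retained tumor barcodes Spink4 was also higher in AP1086, at 2316 CPM against 601 and 725 CPM, and in pooled T cells at 57.2 CPM against 22.7 and 11.9 CPM. In pooled B cells, of which 39.9% had an Epcam UMI, Spink4 was at 231 CPM against 29.0 and 179 CPM. The part of this RNA in the members' difference was not tested.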

How the data were processed

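Droplet-based 3′ scRNA-seq libraries of 10 colon tumors and 3 adjacent mucosa samples were used. The authors ran Cell Ranger (6.0.0 in the submitters' processing notes, build mm10, while the study's methods name an earlier version) and deposited unnormalized UMI counts per gene and barcode. The annotation is not given in the sources used here. The gate on raw counts was applied to each library, and UMIs were summed per gate and tumor.

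Sums were tested with edgeR 4.0.16 (TMM, filterByExpr, quasi-likelihood F test, Benjamini-Hochberg adjustment over all tested genes) with the tumor as a block, since both gates of a comparison come from the same tumor library. The SE of a log2 fold change is its absolute value divided by the square root of the F statistic of this test. DESeq2 1.42.0 was an alternative. Differences between mice were tested over the tumors. CPM are per 1000000 UMIs of the sum. The scripts were tested on simulated data. Doublets were scored with Scrublet in scanpy 1.11.5, and the highest scores were marked at 0.8% per 1000 barcodes. Shares were compared by exact permutation.

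Named genes were the 12 largest rises and 12 largest falls called in the same direction in every tumor with at least 50 CPM in the higher gate, the 10 smallest p-values between mice, and members of the gene lists. The text gives a selection of these. The members and lists were chosen with earlier results of these data known. Other alternatives left out each tumor or mouse, summed UMIs per mouse, or changed the gates, filter, mitochondrial limit and library sizes. In the marker lists, 1 gene is not reported here.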

Additional observations from a re-analysis of the deposited data

Results flagged for a closer look

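Among 58 sets of 10 tumor values examined (2 shares and the members' levels of most named genes), 9 had a highest tumor that stood apart from the rest by Dixon's criterion. The criterion gives about 1 in 20 by chance for independent, normally distributed values, and whether these values were such was not tested. In tumor 5, Ccl6 was at 2565 CPM (next 1424), Inhba at 420 CPM (next 223) and Vcam1 at 66.3 CPM (next 38.2). In tumor 3, Fn1 was at 1454 CPM (next 1047) and Spink4 at 944 CPM (next 451). Apoe was at 35311 CPM in tumor 10 (next 29038), Ccl8 at 72.9 CPM in tumor 4 (next 36.1), F13a1 at 126 CPM in tumor 8 (next 86.8) and Nr1h3 at 41.6 CPM in tumor 6 (next 30.0).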

How the results depend on the processing

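Limiting barcodes to 4000 to 12000 UMIs left 1471 genes called against the Spp1-low cells in place of 3866 and 1720 against the C1q-low cells in place of 3506, with fewer genes tested. Against the Spp1-low cells, 2478 genes were called with no replicate block (3093 against the C1q-low cells) and 2570 without mouse AP1044. Leaving out 1 tumor gave 3418 to 3948 and 3103 to 3444 called genes. Between mice, 321 genes were called by DESeq2 and 730 without the filter on low counts in place of 104, and 8 to 200 with a tumor left out, so that count rests on single tumors. The F statistic between mice for the share of the C1q gate ran from 0.617 to 5.66 with a tumor left out. The F statistic between mice for the share of retained barcodes was 2.52, ran from 1.46 to 6.58 with a tumor left out, and passed the threshold at the latter value, without tumor 3. Within 4000 to 12000 UMIs the direction turned for Ptgs2 (log2 fold change 0.22), Il1b (0.43), Vcan (0.072) and Cd86 (0.19) against the Spp1-low cells and for Mmp12 (-0.0075) against the C1q-low cells. Without mouse AP1044 Nt5e turned to -0.33 against the C1q-low cells and was called (adjusted p = 0.0369). The cause was not tested. The named genes followed over all alternatives left out Mertk, Axl, Elmo1 and Bst2, among others. For the genes followed, 2236 values kept their side of the threshold, and their direction where the gene was called. A further 63 lost the call and 36 gained it, with the direction kept. Another 6, those named above, turned direction with a call before or after. Member sums held 642890 to 3267022 UMIs, Spp1-low sums 2329014 to 7072621 and C1q-low sums 437946 to 1126693, which limits low genes.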
